A study of Mus musculus with 16 samples.

Results

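Expression of 9 genes of coagulation and fibrinolysis was examined in bone endothelial cells of mice: Vwf and F8, F3, Thbd, Procr and Tfpi, and Plat, Plau and Plaur. The set is defined by gene symbol, or by Ensembl identifier where the values are listed by identifier, and no threshold on a measured value enters its definition. All 9 were present among 38926 listed genes for the regional comparison, 21603 for Yap1/Taz and 38922 for Lats2. A mean of at least 1 FPKM (fragments per kilobase, with library size scaled out) over the libraries of a comparison was required for testing. This left 7 of the 9 among 11422 tested genes, 9 of 9 among 11320 and 8 of 9 among 12451, respectively. For Yap1/Taz, F3 passed through 1 group alone.

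RNA was sequenced from endothelial cells sorted by FACS from bone of C57BL/6 mice, in 16 libraries. The regional comparison held 3 libraries of wild-type cells from the metaphysis (mpECs) and 3 from the marrow of the shaft (bmECs), sorted by a Cdh5 mT/nG reporter that labels endothelial membranes and nuclei. For Yap1/Taz, 3 control libraries carried floxed Yap1 and Wwtr1 (the gene for Taz) and no Cre, and 3 libraries labelled ECKO also carried Cdh5CreERT2, a tamoxifen-inducible Cre active in endothelial cells. These mice were at postnatal day 21. For Lats2, a kinase upstream of both, 2 Cont libraries carried the floxed gene without Cre and 2 cKO libraries carried the same driver, and Cre-negative littermates served as controls in both mutant comparisons. By the study's methods the bone cells of all 3 comparisons came from mice 3 weeks old, groups were formed without regard to sex, and replicates were biological and made in triplicate, whereas the Lats2 groups hold 2 libraries each. For wild-type bone the methods name male C57BL/6J mice. The sex behind a library of the mutant comparisons, and how many animals went into any library, are not given. The p-values measure the spread between these libraries. Reads recovered from the FPKM steps numbered 11163416 to 14807206 per library in the regional comparison, 4889945 to 7162965 for Yap1/Taz and 4741088 to 7084239 for Lats2. Each comparison was normalized on its own, so tests were made within a comparison only.

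Blood clotting begins when tissue factor, encoded by F3, meets plasma factor VII, and it ends in a fibrin mesh formed by thrombin. Resting endothelium keeps blood fluid with thrombomodulin and the endothelial protein C receptor, which together let thrombin activate protein C, and with tissue factor pathway inhibitor. It also secretes von Willebrand factor, which tethers platelets and carries factor VIII, and plasminogen activators, which start the breakdown of fibrin.

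The targeted genes were read first. Yap1 stood at 1.07, 1.62 and 0.995 FPKM in the control libraries and 1.43, 1.03 and 0.989 FPKM in the libraries labelled ECKO, and the groups overlapped (log2 fold change -0.044 ± 0.18 (SE), adjusted p = 0.934). Wwtr1 stood at 10.01, 9.88 and 10.3 FPKM in the control libraries and 15.3, 19.6 and 19.5 FPKM in the libraries labelled ECKO. All 3 libraries labelled ECKO lay above all 3 controls (log2 fold change 0.78 ± 0.12 (SE), adjusted p = 0.0272), which goes against the label, so the name of that group is used here only as a label. Other measures of the study run the way the label says. By quantitative PCR it reports less Yap1 and Wwtr1 in freshly isolated mutant cells, and it reports weaker Yap1 immunostaining. The call for Wwtr1 was lost without control replicate 2 or 3 or ECKO replicate 2 or 3 (adjusted p of 0.0715 to 0.180). Over 17 alternative settings its log2 fold change ranged from 0.48 to 0.89. Lats2 stood at 23.4 and 24.0 FPKM in the Cont libraries and 19.2 and 19.2 FPKM in the cKO libraries, without overlap but short of the threshold (log2 fold change -0.29 ± 0.11 (SE), adjusted p = 0.125). In limma-voom on recovered reads it was called lower (-0.44, adjusted p = 0.0434), a setting that moved the median of all genes to -0.14. Of its exon bases, 42.4% are shared with a gene on the same strand, Gm49361. Which exons the floxed alleles remove was not examined for any of the 3 genes, and reads outside those exons still count towards these values, so the levels of Yap1, Wwtr1 and Lats2 need not show the deletions. Wwtr1 was higher in the cKO libraries, at 53.8 and 58.9 FPKM in the Cont libraries and 83.3 and 92.5 FPKM in the cKO libraries (log2 fold change 0.63 ± 0.12 (SE), adjusted p = 0.0257), and Yap1 was level, at 2.13 and 2.14 FPKM in the Cont libraries and 2.12 and 1.95 FPKM in the cKO libraries (log2 fold change -0.047 ± 0.19 (SE), adjusted p = 0.876). Lats2 in the Yap1/Taz comparison was 8.77, 9.45 and 7.70 FPKM in the control libraries and 9.501, 12.4 and 12.1 FPKM in the libraries labelled ECKO, without overlap and not called (log2 fold change 0.35 ± 0.13 (SE), adjusted p = 0.194). In the regional comparison Yap1 was 1.70, 2.26 and 2.14 FPKM in the mpECs and 2.22, 1.82 and 1.99 FPKM in the bmECs (adjusted p = 0.974), and Lats2 was 5.72, 6.52 and 6.58 FPKM in the mpECs and 7.24, 6.27 and 5.71 FPKM in the bmECs (adjusted p = 0.909), both with overlap. Wwtr1 was 10.1, 13.2 and 14.2 FPKM in the mpECs and 8.70, 9.91 and 7.41 FPKM in the bmECs, without overlap and just outside the threshold (log2 fold change -0.48 ± 0.15 (SE), adjusted p = 0.0532). The Lats2 call for Wwtr1 was lost without Cont replicate 1 or 2 (adjusted p of 0.167 to 0.214). That for Wwtr1 was also lost without cKO replicate 2 (adjusted p = 0.0729).

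**Figure D1:**
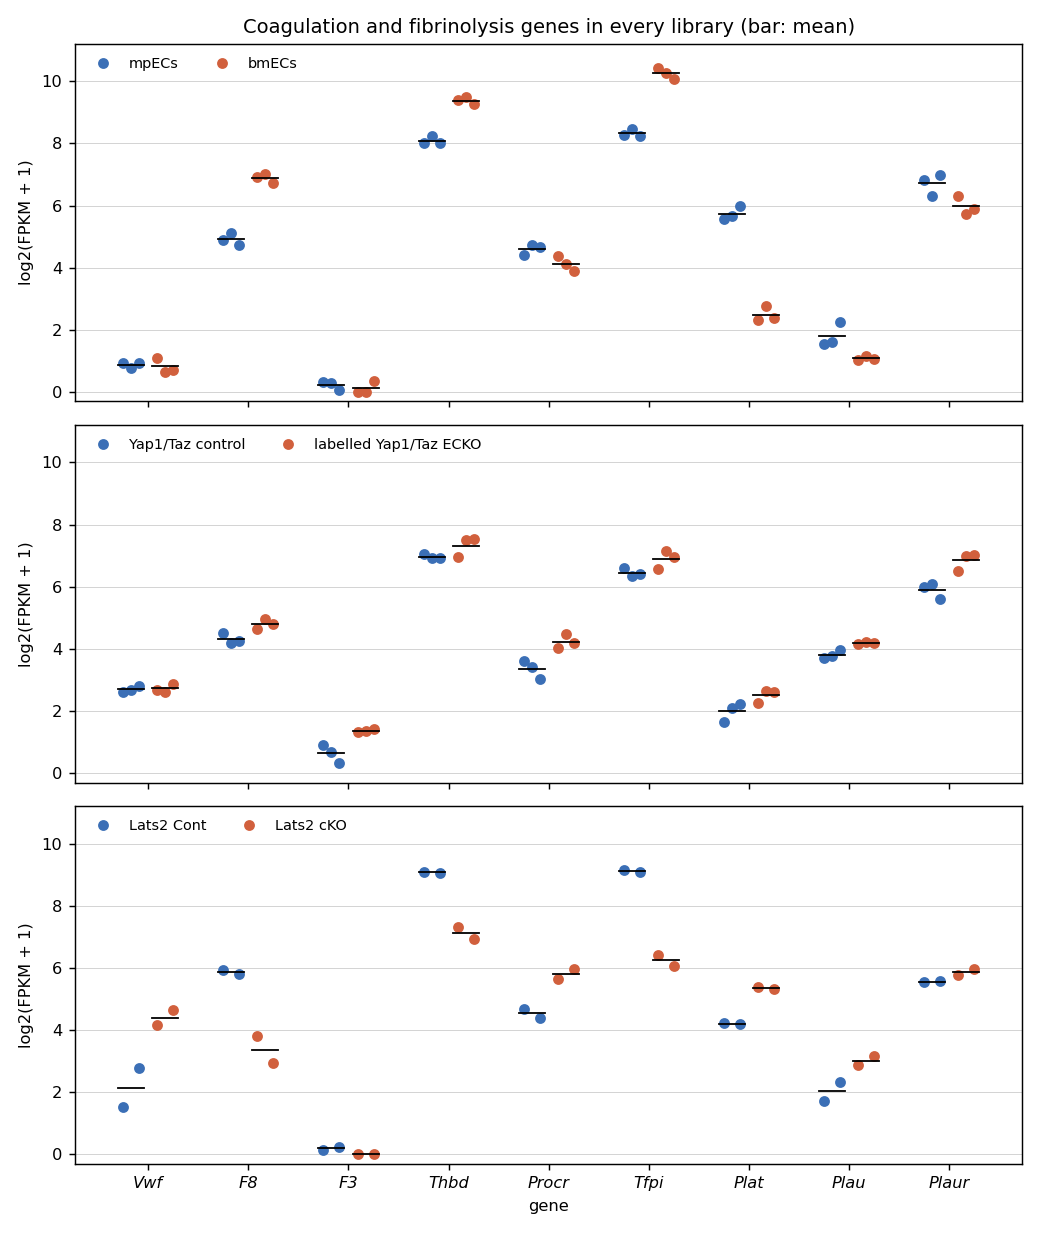
Level of the 9 genes in every library as log2(FPKM + 1), with 1 point per library and a bar at the mean of each group, in separate panels for bmECs and mpECs, for Yap1/Taz and for Lats2. Tfpi and Thbd lie highest in the regional and control libraries, F3 lies lowest in all panels, and the panels were normalized separately.

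Tfpi and Thbd had the highest mean FPKM of the 9 in all 6 groups. In mpECs the order of mean FPKM was Tfpi, Thbd, Plaur, Plat, F8, Procr, Plau, Vwf and F3, with overlapping libraries for Tfpi and Thbd and for F8 and Procr. In bmECs it was Tfpi, Thbd, F8, Plaur, Procr, Plat, Plau, Vwf and F3, and Plau overlapped with Vwf. Plat thus ranked above F8 in mpECs and below it in bmECs. In the controls it was Thbd, Tfpi, Plaur, F8, Plau, Procr, Vwf, Plat and F3, with no neighbours overlapping, and in the libraries labelled ECKO it was Thbd, Tfpi, Plaur, F8, Procr, Plau, Vwf, Plat and F3, with overlap of Thbd with Tfpi, Tfpi with Plaur, Procr with Plau and Vwf with Plat. In the Cont libraries it was Tfpi, Thbd, F8, Plaur, Procr, Plat, Vwf, Plau and F3, and Vwf overlapped with Plau. In the cKO libraries Thbd and Tfpi led by less, and Plaur and Procr, whose libraries overlapped, and Plat came next, above Vwf, F8 and Plau, of which F8 and Plau overlapped.

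In bmECs against mpECs, 3 of the 7 tested genes were higher at an adjusted p under 0.05 in limma (F8, Tfpi and Thbd), where 12.97% of all tested genes were called higher, and 4 were lower (Plat, Plaur, Plau and Procr), where 10.51% were called lower. In the libraries labelled ECKO, 2 of 9 were called higher (Plaur and Procr), against 0.8834% of all tested genes, and 0 of 9 lower, against 0.424%; at an unadjusted p under 0.05, 2023 genes of all tested passed, against 148 after adjustment. In bmECs 4 of the 7 stayed called without mpEC replicate 3, bmEC replicate 2 or bmEC replicate 3. In the libraries labelled ECKO 0 of the 9 were called by limma without control replicate 2 or 3 or ECKO replicate 2 or 3, and 4 without ECKO replicate 1. The genes called in all numbered 20, 14, 1 and 1 without those libraries, in that order, and 293 without ECKO replicate 1. In the cKO libraries, 3 of 8 were called higher (Vwf, Procr and Plat) and 3 lower (Tfpi, F8 and Thbd), against 11.79% and 9.983% of all tested genes. The median log2 fold change of all tested genes was -0.00068, -0.0047 and -0.0031 in the 3 comparisons. Fold changes are on the log2(FPKM + 1) scale, which understates the change of low genes. Without Cont replicate 1 or without Cont replicate 2, limma called 0 genes of any kind in the Lats2 comparison, and without cKO replicate 2 it called 931. In the fits without a Cont library, 2724 and 2878 genes had an unadjusted p under 0.05, and the remaining Cont library was taken to vary like the cKO libraries. In the fits without a cKO library, the remaining cKO library was likewise taken to vary like the Cont libraries. Because the libraries are bulk RNA, fewer cells of a type and less RNA per cell cannot be told apart.

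**Figure D2:**
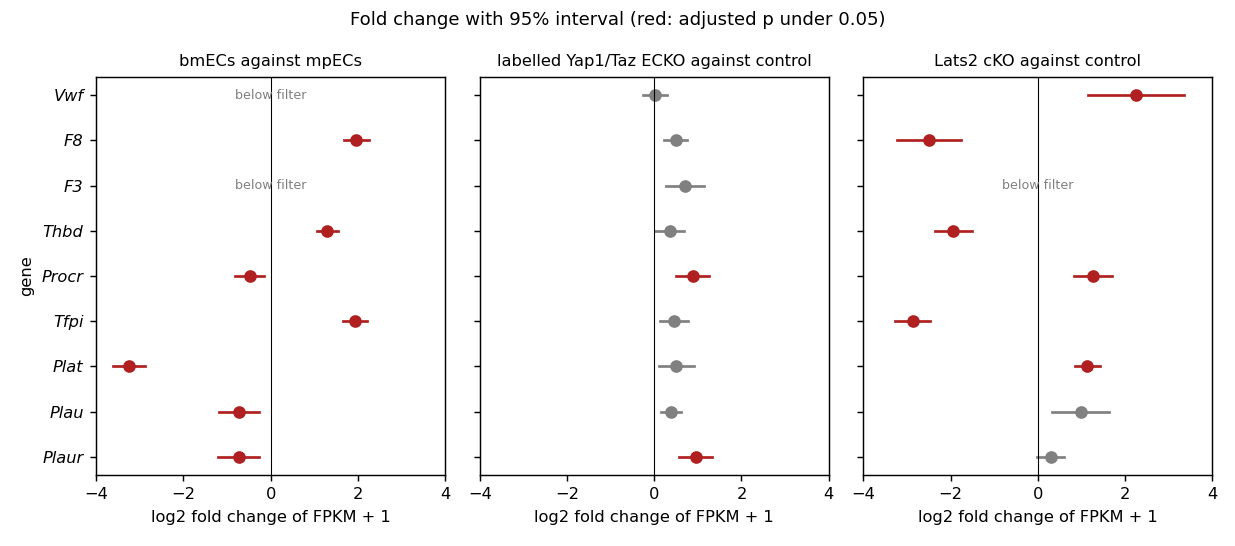
Log2 fold change of FPKM + 1 for the 9 genes with its 95% interval in the 3 comparisons, in red where the adjusted p was under 0.05. F8, Thbd and Tfpi lie to the right for bmECs and to the left for cKO, and genes below the abundance filter carry no point.

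F8 encodes coagulation factor VIII, the cofactor of factor IX, which endothelial cells supply to plasma. It stood at 28.6, 33.6 and 25.7 FPKM in the mpECs and 119, 129 and 104 FPKM in the bmECs, and every bmEC library lay above every mpEC library (log2 fold change 1.97 ± 0.12 (SE), adjusted p = 4.6e-05; 4.01-fold by mean FPKM). F8 stood at 59.7 and 55.5 FPKM in the Cont libraries and 13 and 6.71 FPKM in the cKO libraries, and it fell in both cKO libraries (log2 fold change -2.49 ± 0.29 (SE), adjusted p = 0.0105). The adjusted p was 0.132 and 0.114 without Cont replicate 1 and 2 in turn. Its level was 21.9, 17.1 and 18.0 FPKM in the control libraries and 24.2, 30.0 and 26.7 FPKM in the libraries labelled ECKO. The groups did not overlap, yet the difference missed the threshold (log2 fold change 0.49 ± 0.12 (SE), adjusted p = 0.0785; interval 0.21 to 0.76). It was called in limma-voom on recovered reads (0.47, adjusted p = 0.0382).

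Vwf encodes von Willebrand factor, the adhesive protein that binds factor VIII. It was near the lower end in the regional comparison, at 0.892, 0.693 and 0.910 FPKM in the mpECs and 1.15, 0.579 and 0.629 FPKM in the bmECs, and was not tested there because its mean was below 1 FPKM; the groups overlapped. Vwf stood at 1.86 and 5.86 FPKM in the Cont libraries and 16.9 and 24.0 FPKM in the cKO libraries. Both cKO libraries exceeded both Cont libraries, which themselves lay far apart (log2 fold change 2.25 ± 0.43 (SE), adjusted p = 0.0253). The call was lost without Cont replicate 1 or 2 or cKO replicate 1 or 2 (adjusted p of 0.0734 to 0.132), that is, on leaving out any of the 4 libraries, and the log2 fold change then ranged from 1.62 to 2.88. It was also lost with no abundance filter (adjusted p = 0.0615) and at an adjusted p under 0.01 with an absolute log2 fold change over 0.5, and it held in 9 of 15 alternatives. Vwf levels were 5.11, 5.47 and 6.07 FPKM in the control libraries and 5.43, 5.16 and 6.39 FPKM in the libraries labelled ECKO, with overlapping groups (log2 fold change 0.021 ± 0.12 (SE), adjusted p = 0.956; interval -0.26 to 0.30), and the log2 fold change was -0.027 without control replicate 1, -0.056 without ECKO replicate 3 and -0.25 with each library scaled to its summed endothelial markers. F8 and Vwf, whose products travel as a complex in blood, were thus called in opposite directions in the cKO libraries.

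F3, the tissue factor gene, was the scarcest of the 9. It stood at 0.259, 0.214 and 0.0549 FPKM in the mpECs and 0, 0 and 0.272 FPKM in the bmECs and at 0.107 and 0.179 FPKM in the Cont libraries and 0 and 0 FPKM in the cKO libraries, below the filter in both comparisons, so that neither was tested. In the cKO libraries a count of 0 allows up to 0.315 and 0.238 FPKM at 3 reads, counting error only, and the Cont values lay under their own floors of 0.239 and 0.200 FPKM, so a difference was not detectable at this depth. F3 reached 0.898, 0.619 and 0.258 FPKM in the control libraries and 1.48, 1.55 and 1.69 FPKM in the libraries labelled ECKO. All 3 libraries labelled ECKO lay above all 3 controls, where the highest rested on 10.8 recovered reads, and the difference missed the threshold (log2 fold change 0.71 ± 0.19 (SE), adjusted p = 0.0974). F3 passed the filter only through the libraries labelled ECKO (mean 1.57 FPKM, against 0.592 FPKM in the controls), so no conclusion is drawn from its test. It fell below the filter without ECKO replicate 2 or 3.

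Tfpi encodes tissue factor pathway inhibitor, which blocks the complex of tissue factor and factor VIIa. It stood at 308, 355 and 299 FPKM in the mpECs and 1375, 1238 and 1067 FPKM in the bmECs. The lowest bmEC library was above the highest mpEC library (log2 fold change 1.93 ± 0.12 (SE), adjusted p = 4.6e-05; 3.83-fold by mean FPKM), and by FPKM the gene ranked 36, 41 and 43 of all listed genes in bmEC replicates 1 to 3. Tfpi stood at 566 and 548 FPKM in the Cont libraries and 85.0 and 66.5 FPKM in the cKO libraries, a ratio of Cont to cKO means of 7.36 (log2 fold change -2.87 ± 0.16 (SE), adjusted p = 0.00574). Without Cont replicate 1 or 2 the adjusted p was 0.129 and 0.110, with log2 fold changes of -2.85 and -2.90. Tfpi levels were 95.9, 79.8 and 84.4 FPKM in the control libraries and 94.99, 139.8 and 125 FPKM in the libraries labelled ECKO, and the groups overlapped through ECKO replicate 1 (log2 fold change 0.45 ± 0.14 (SE), adjusted p = 0.140). Without that library the log2 fold change was 0.61 and passed the threshold (adjusted p = 0.0304).

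The 250 bases upstream of the annotated Tfpi starts are shown from RefSeq (GRCm38.p6, minus strand), at chr2:84476760-84477009 and chr2:84474175-84474424. GENCODE places 16 and 11 of these bases in exons of Tfpi and the rest outside them. Capitals mark GGGTG or, on the other strand, CACCC, a core bound by Krueppel-like factors.
Tfpi upstream start: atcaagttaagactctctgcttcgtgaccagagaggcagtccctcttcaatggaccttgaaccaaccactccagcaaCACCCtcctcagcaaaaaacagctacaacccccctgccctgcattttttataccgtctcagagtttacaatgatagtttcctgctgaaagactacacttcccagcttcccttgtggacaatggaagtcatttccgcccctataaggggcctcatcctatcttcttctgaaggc
Tfpi downstream start: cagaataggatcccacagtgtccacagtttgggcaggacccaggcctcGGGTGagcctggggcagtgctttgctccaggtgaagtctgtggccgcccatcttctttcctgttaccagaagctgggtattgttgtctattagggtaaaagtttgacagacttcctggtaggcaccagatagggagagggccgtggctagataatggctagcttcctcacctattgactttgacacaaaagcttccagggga
Each window held 1 match, CACCC at position -173 and GGGTG at position -202 from the start. RefSeq promoters were matched for 5 of the 9 genes (Tfpi, with 2 starts, Procr, F3, Plaur and F8), and Vwf, Thbd, Plat and Plau had no entry. Of these 6 promoters, 4 held GGGTG or CACCC, as did 52.0% of 32851 mouse promoters of the same length. GGAATG or CATTCC, the core bound by TEAD partners of Yap1 and Taz, was in 1 of the 6 (F8) and in 12.6% of all promoters. All 250 bases of that F8 window, and 100 of the Procr window, lie in exons of the same gene in GENCODE. ACGTG or CACGT, the core of hypoxia response elements, was in 0 of the 6 and in 16.6% of all promoters. The 3 cores do not contain one another.

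Thbd encodes thrombomodulin, the thrombin receptor that redirects thrombin towards protein C. It stood at 255, 303 and 255 FPKM in the mpECs and 667, 720.3 and 610.4 FPKM in the bmECs, and all bmEC libraries were above all mpEC libraries (log2 fold change 1.30 ± 0.11 (SE), adjusted p = 0.000142). Thbd stood at 546 and 538 FPKM in the Cont libraries and 161 and 122 FPKM in the cKO libraries, and both cKO libraries were far below both Cont libraries (log2 fold change -1.94 ± 0.17 (SE), adjusted p = 0.00759; adjusted p of 0.129 and 0.113 without Cont replicate 1 or 2). Thbd levels were 133, 122 and 120.2 FPKM in the control libraries and 122, 181 and 183 FPKM in the libraries labelled ECKO, where ECKO replicate 1 lay among the controls (log2 fold change 0.35 ± 0.15 (SE), adjusted p = 0.261; adjusted p = 0.0244 and log2 fold change 0.54 without it).

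Procr encodes the endothelial protein C receptor, which presents protein C to thrombomodulin. Unlike its partner Thbd, it was lower in bmECs, at 20.3, 25.8 and 24.4 FPKM in the mpECs and 19.6, 16.4 and 13.8 FPKM in the bmECs. The gap between the groups was narrow (log2 fold change -0.48 ± 0.14 (SE), adjusted p = 0.0441), and the call was lost without mpEC replicate 2 or 3 or bmEC replicate 2 or 3 (adjusted p of 0.106 to 0.129). Procr stood at 24.8 and 19.9 FPKM in the Cont libraries and 49.3 and 61.3 FPKM in the cKO libraries and was higher in both cKO libraries (log2 fold change 1.27 ± 0.17 (SE), adjusted p = 0.0131), with the call lost without Cont replicate 1 or 2 or cKO replicate 2 (adjusted p of 0.0554 to 0.131). Procr levels were 11.3, 9.73 and 7.16 FPKM in the control libraries and 15.2, 21.5 and 17.4 FPKM in the libraries labelled ECKO. It was higher in all 3 libraries labelled ECKO (log2 fold change 0.88 ± 0.17 (SE), adjusted p = 0.0423), and that call was lost without control replicate 2 or 3 or ECKO replicate 2 or 3 (adjusted p of 0.0942 to 0.209). Thbd and Procr were thus called in opposite directions in bmECs and in the cKO libraries. Tfpi, Thbd and Procr all lie on chromosome 2 and share no exon bases.

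Plat, which encodes tissue-type plasminogen activator, showed the widest regional difference of the 9. It stood at 46.1, 49.8 and 63.1 FPKM in the mpECs and 3.98, 5.81 and 4.23 FPKM in the bmECs, a ratio of mpEC to bmEC means of 11.3 without overlap (log2 fold change -3.25 ± 0.16 (SE), adjusted p = 2.0e-05). Plat stood at 17.9 and 17.2 FPKM in the Cont libraries and 40.7 and 38.7 FPKM in the cKO libraries. Replicates within a group were close, and it was higher in both cKO libraries (log2 fold change 1.14 ± 0.11 (SE), adjusted p = 0.00911; adjusted p of 0.131 and 0.113 without Cont replicate 1 or 2). Plat levels were 2.16, 3.27 and 3.70 FPKM in the control libraries and 3.81, 5.20 and 5.15 FPKM in the libraries labelled ECKO, without overlap but below the threshold (log2 fold change 0.51 ± 0.18 (SE), adjusted p = 0.170).

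Plau encodes urokinase, the other plasminogen activator. Its regional values were 1.90, 2.05 and 3.74 FPKM in the mpECs and 1.04, 1.22 and 1.09 FPKM in the bmECs, all low (log2 fold change -0.72 ± 0.20 (SE), adjusted p = 0.0345), and mpEC replicate 3 was the highest; the call was lost without mpEC replicate 3 or bmEC replicate 1, 2 or 3 (adjusted p of 0.0700 to 0.0926). For Lats2 they were 2.32 and 4.09 FPKM in the Cont libraries and 6.33 and 7.97 FPKM in the cKO libraries, without overlap and just outside the threshold (log2 fold change 0.98 ± 0.26 (SE), adjusted p = 0.0502). For Yap1/Taz they were 12.1, 12.6 and 14.5 FPKM in the control libraries and 16.9, 17.9 and 17.3 FPKM in the libraries labelled ECKO; every library labelled ECKO was above every control, and the difference did not pass (log2 fold change 0.39 ± 0.10 (SE), adjusted p = 0.0909).

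Plaur, the gene of the urokinase receptor, was more abundant than its ligand in every group. Regional values were 113, 78.3 and 126 FPKM in the mpECs and 78.1, 52.6 and 58.1 FPKM in the bmECs. The groups met without crossing, at mpEC replicate 2 and bmEC replicate 1 (log2 fold change -0.73 ± 0.20 (SE), adjusted p = 0.0334), and the call was lost without mpEC replicate 1 or 3 or bmEC replicate 2 or 3 (adjusted p of 0.0876 to 0.111). For Yap1/Taz they were 63.2, 67.2 and 47.3 FPKM in the control libraries and 90.5, 127 and 129 FPKM in the libraries labelled ECKO, and Plaur was higher in all 3 libraries labelled ECKO (log2 fold change 0.95 ± 0.17 (SE), adjusted p = 0.0387); this call was lost without control replicate 2 or 3 or ECKO replicate 2 or 3 (adjusted p of 0.0752 to 0.197). For Lats2 they were 45.6 and 47.0 FPKM in the Cont libraries and 53.3 and 61.2 FPKM in the cKO libraries, which did not overlap and did not pass (log2 fold change 0.30 ± 0.12 (SE), adjusted p = 0.146).

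**Figure D3:**
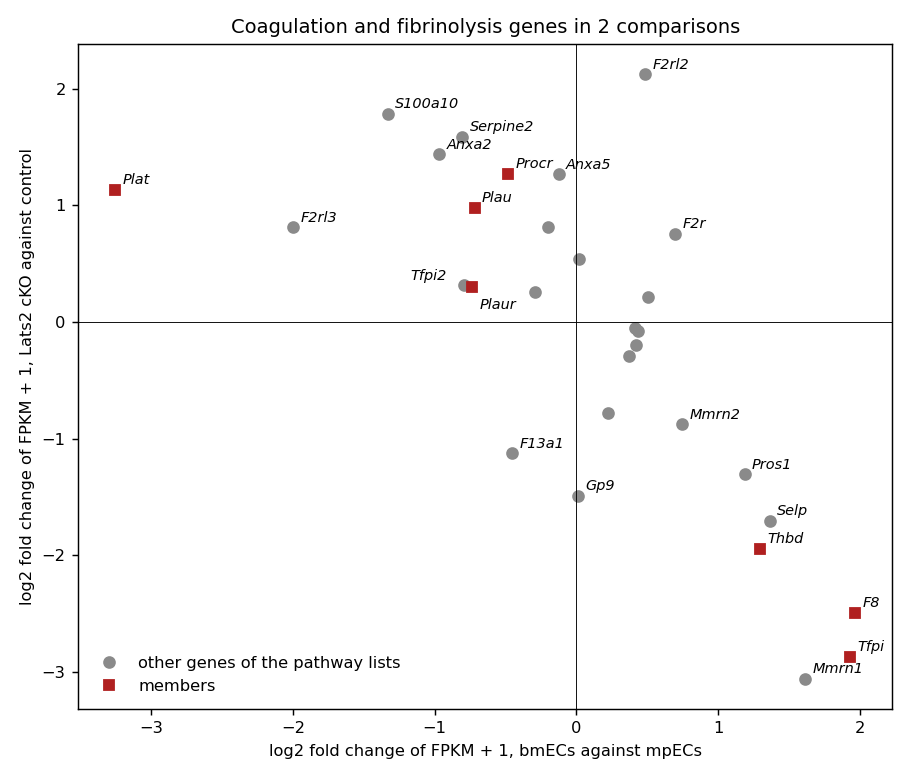
Log2 fold change of FPKM + 1 for bmECs against mpECs (horizontal) and for Lats2 cKO against control (vertical), with 1 point per gene tested in both, squares for the 9 genes where tested and circles for other genes of the pathway. F8, Tfpi and Thbd lie at lower right with Mmrn1, Selp and Pros1, and Plat and Procr at upper left with S100a10 and Anxa2; the libraries of both axes are different and were normalized separately.

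Of 16 other genes of clotting factors and their processing, 6, 7 and 5 passed the filter in the regional, Yap1/Taz and Lats2 comparisons, with median log2 fold changes of 0.19, 0.12 and -0.077. The fibrinogen chains Fga, Fgb and Fgg, F11 and F13b were at 0 FPKM in all 16 libraries. In bmECs 3 were called higher and 0 lower: Ggcx, which carboxylates vitamin K-dependent factors, and Lman1 and Mcfd2, the cargo receptor that moves factors V and VIII out of the endoplasmic reticulum. Mcfd2, the most abundant, stood at 62.8, 66.2 and 68.7 FPKM in the mpECs and 87.2, 86.2 and 83.2 FPKM in the bmECs (log2 fold change 0.37 ± 0.074 (SE), adjusted p = 0.00893). Lman1 stood at 35.1, 35.0 and 33.7 FPKM in the mpECs and 47.0, 49.5 and 42.9 FPKM in the bmECs (log2 fold change 0.41 ± 0.082 (SE), adjusted p = 0.00890), and Ggcx had a log2 fold change of 0.44 (adjusted p = 0.0161). With scaling to the summed endothelial markers none of the 3 was called (adjusted p = 0.124, 0.149 and 0.152 for Ggcx, Lman1 and Mcfd2). In limma-voom the log2 fold changes were 0.28 (adjusted p = 0.118), 0.22 (adjusted p = 0.0371) and 0.18 (adjusted p = 0.116), so that only Lman1 was called. That setting moved the median of all genes to -0.19. In the libraries labelled ECKO 0 of 7 were called in either direction by limma. In the cKO libraries 1 was called, Vkorc1, which shares 47.7% of its exon bases with Gm21974 on the same strand, at 0.54 (adjusted p = 0.0472). The call for Ggcx in bmECs was lost without mpEC replicate 2 or bmEC replicate 1 (adjusted p of 0.0522 to 0.0631). Leaving out Cont replicate 1 or 2 lost the Lats2 call for Vkorc1 (adjusted p of 0.247 to 0.248). That for Vkorc1 was also lost without cKO replicate 2 (adjusted p = 0.0987).

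Among 4 thrombin and protease receptors, F2r, the main thrombin receptor, was the most abundant and was called higher in all 3 comparisons. It stood at 40.9, 57.7 and 56.8 FPKM in the mpECs and 73.5, 85.6 and 92.6 FPKM in the bmECs (log2 fold change 0.70 ± 0.15 (SE), adjusted p = 0.0124) and at 75.3 and 87.3 FPKM in the Cont libraries and 124 and 153 FPKM in the cKO libraries (log2 fold change 0.76 ± 0.16 (SE), adjusted p = 0.0289). F2r levels were 41.0, 38.4 and 34.1 FPKM in the control libraries and 49.9, 71.9 and 69.3 FPKM in the libraries labelled ECKO (log2 fold change 0.72 ± 0.14 (SE), adjusted p = 0.0457). F2rl3 was lower in bmECs, at 14.9, 16.8 and 15.8 FPKM in the mpECs and 4.23, 1.93 and 3.88 FPKM in the bmECs (log2 fold change -1.997 ± 0.21 (SE), adjusted p = 0.000458), and higher in the cKO libraries, with a log2 fold change of 0.81 (adjusted p = 0.0146). F2rl1 stood at 0.0730 and 0.183 FPKM in the Cont libraries and 3.85 and 6.56 FPKM in the cKO libraries. It was called higher but passed the filter through the cKO libraries alone, and both Cont values lay under their floors of 3 reads (0.220 and 0.184 FPKM), so no fold change is given. The list's medians were 0.48, 0.41 and 1.47 over 3, 2 and 4 tested genes, the last of them with F2rl1. Of the others tested for Lats2, F2r lay at 0.76, F2rl3 at 0.81 and F2rl2, not called, at 2.12 (adjusted p = 0.0727). The middle value without F2rl1 was thus 0.81. The call for F2r in the libraries labelled ECKO was lost without control replicate 1, 2 or 3 or ECKO replicate 2 or 3 (adjusted p of 0.0562 to 0.218). Without Cont replicate 1 or 2, the Lats2 calls for F2r, F2rl3 and F2rl1 were lost (adjusted p of 0.113 to 0.222). That for F2r was also lost without cKO replicate 2 (adjusted p = 0.0817).

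Of 10 other anticoagulant genes, 4 were tested in each comparison, with medians of 0.048, 0.43 and -0.23; Proc and Serpina10 were at 0 in all libraries. Pros1, the gene of protein S, a cofactor of activated protein C and of tissue factor pathway inhibitor, stood at 174, 184 and 164 FPKM in the mpECs and 423, 418 and 354 FPKM in the bmECs (log2 fold change 1.19 ± 0.097 (SE), adjusted p = 0.000143) and at 178 and 170.3 FPKM in the Cont libraries and 77.8 and 62.4 FPKM in the cKO libraries (log2 fold change -1.31 ± 0.15 (SE), adjusted p = 0.0102). It was higher in bmECs and lower in the cKO libraries, as were Tfpi and Thbd. Tfpi2, a related inhibitor of plasmin and other proteases, was lower in bmECs, at 37.9, 61.8 and 60.8 FPKM in the mpECs and 24.8, 33.3 and 31.9 FPKM in the bmECs (log2 fold change -0.79 ± 0.20 (SE), adjusted p = 0.0233). It was higher in the libraries labelled ECKO, at 5.15, 7.54 and 7.89 FPKM in the control libraries and 11.8, 16.4 and 14.5 FPKM in the libraries labelled ECKO (log2 fold change 0.96 ± 0.17 (SE), adjusted p = 0.0387). Anxa5, which shields anionic phospholipid and was the most abundant of the list by mean over the libraries of each comparison (behind Pros1 by group mean in bmECs), stood at 286 and 296 FPKM in the Cont libraries and 626 and 785 FPKM in the cKO libraries (log2 fold change 1.27 ± 0.16 (SE), adjusted p = 0.0115). The call for Tfpi2 in bmECs was lost without mpEC replicate 2 or 3 or bmEC replicate 1 or 3 (adjusted p of 0.05004 to 0.0840). The call for Tfpi2 in the libraries labelled ECKO was lost without control replicate 2 or 3 or ECKO replicate 2 or 3 (adjusted p of 0.0715 to 0.197). The Lats2 calls for Pros1 and Anxa5 were lost without Cont replicate 1 or 2 (adjusted p of 0.116 to 0.148).

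Of 10 other fibrinolysis genes, 5, 5 and 4 were tested. In bmECs 0 were called higher and 2 lower (median -0.80), in the libraries labelled ECKO limma called 0 of 5 in either direction (median 0.0061), and in the cKO libraries 3 were higher and 0 lower (median 1.51). Hrg was at 0 in all libraries. Anxa2 and S100a10 form the heterotetramer that binds tissue-type plasminogen activator and plasminogen at the cell surface, and both were called with Plat in both comparisons. Anxa2 stood at 377, 355 and 391 FPKM in the mpECs and 194, 189 and 189.7 FPKM in the bmECs (log2 fold change -0.97 ± 0.076 (SE), adjusted p = 0.000124) and at 217 and 235 FPKM in the Cont libraries and 528 and 714 FPKM in the cKO libraries (log2 fold change 1.44 ± 0.18 (SE), adjusted p = 0.0117). S100a10 had log2 fold changes of -1.33 (adjusted p = 0.000311) in bmECs and 1.79 (adjusted p = 0.00911) in the cKO libraries. Serpine2 was called higher in the cKO libraries (1.59, adjusted p = 0.0453). Its log2 fold change ranged from 0.98 to 2.20 on leaving out 1 library. Leaving out Cont replicate 1 or 2 lost the Lats2 calls for Anxa2, S100a10 and Serpine2 (adjusted p of 0.113 to 0.239). That for Serpine2 was also lost without cKO replicate 2 (adjusted p = 0.0543).

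Of 10 genes for von Willebrand factor partners and the Weibel-Palade bodies that store it, 8 were tested in each comparison. In bmECs 4 were called higher and 0 lower (median 0.63), in the libraries labelled ECKO 1 and 0 (median 0.19), and in the cKO libraries 1 and 3 (median -1.17). In each comparison 2 of the 8 are also among the megakaryocyte and platelet markers, and over the other 6 the medians were 0.63, 0.22 and -0.54. In the Lats2 comparison the 2 were Gp1bb and Gp9, which were at 0 in both cKO libraries, passed the filter through Cont alone (means of 2.28 and 2.13 FPKM) and were not called. Selp, the P-selectin gene, stood at 84.9, 93.2 and 67.8 FPKM in the mpECs and 256, 202 and 182 FPKM in the bmECs (log2 fold change 1.37 ± 0.16 (SE), adjusted p = 0.000689) and at 177 and 154 FPKM in the Cont libraries and 55.5 and 44.8 FPKM in the cKO libraries (log2 fold change -1.71 ± 0.16 (SE), adjusted p = 0.00809). Mmrn1, encoding multimerin 1, a carrier of factor V, stood at 78.5, 80.4 and 53.6 FPKM in the mpECs and 252, 233 and 169 FPKM in the bmECs (log2 fold change 1.61 ± 0.19 (SE), adjusted p = 0.000886) and at 85.8 and 83.2 FPKM in the Cont libraries and 12.96 and 6.54 FPKM in the cKO libraries (log2 fold change -3.06 ± 0.30 (SE), adjusted p = 0.00900). In the libraries labelled ECKO it was the gene called, at a log2 fold change of 0.81 (adjusted p = 0.0235). Vwf, stored beside P-selectin, went the other way from Selp in the cKO libraries. Mmrn2 had log2 fold changes of 0.75 in bmECs (adjusted p = 0.00279) and -0.88 in cKO (adjusted p = 0.0174). Cd63, the most abundant of the list in bmECs, was called higher there (0.50, adjusted p = 0.0232), and Rab27a, a regulator of the storage bodies, was higher in cKO (0.81, adjusted p = 0.0304). The call for Cd63 in bmECs was lost without mpEC replicate 2 or 3 or bmEC replicate 1 or 2 (adjusted p of 0.0618 to 0.0877). The call for Mmrn1 in the libraries labelled ECKO was lost without control replicate 2 or 3 or ECKO replicate 2 or 3 (adjusted p of 0.0737 to 0.155). Without Cont replicate 1 or 2, the Lats2 calls for Selp, Mmrn1, Mmrn2 and Rab27a were lost (adjusted p of 0.110 to 0.187). That for Rab27a was also lost without cKO replicate 1 or 2 (adjusted p of 0.0588 to 0.0785).

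All 10 endothelial markers were above 0 in every library. Their summed level was 1325, 1722 and 1648 FPKM in the mpECs and 1574, 1551 and 1629 FPKM in the bmECs, with 3 of 10 called higher (Kdr, Tek and Erg) and 3 lower (Emcn, Tie1 and Pecam1) in bmECs. In the Yap1/Taz comparison it was 602, 620.0 and 599 FPKM in the control libraries and 694, 776 and 803 FPKM in the libraries labelled ECKO. All 10 had log2 fold changes above 0 (median 0.29), 0 were called by limma, and Cdh5 was the most abundant. The 9 coagulation and fibrinolysis genes were likewise all above 0, as were 5534 of all 11320 tested genes. Among the 9, Vwf fell below 0 in some alternatives, and F3 passed the filter through the libraries labelled ECKO alone. When each library was scaled to its summed endothelial markers, Procr and Plaur had log2 fold changes of 0.58 (adjusted p = 0.0297) and 0.63 (adjusted p = 0.0152), and the median of all genes moved to -0.28. Of all genes, 99 were then called higher and 2971 lower, against 100 and 48 in the main fit. More calls loosen the adjustment, so these adjusted p-values are not comparable with those of the main fit. The other 7 genes were not called under this scaling, and their log2 fold changes moved to 0.56 (F3), 0.26 (Plat), 0.18 (F8), 0.13 (Tfpi), 0.089 (Plau), 0.036 (Thbd) and -0.25 (Vwf). In the Lats2 comparison the sum was 2584 and 2772 FPKM in the Cont libraries and 2673 and 2666 FPKM in the cKO libraries, with Pecam1 called higher and Tek and Kdr lower. By mean over all libraries of a comparison Esam was the most abundant there and in the regional comparison, with Egfl7 ahead of it in the mpECs and Eng in the bmEC and Cont libraries by group mean. The call for Erg in bmECs was lost without mpEC replicate 3 or bmEC replicate 1, 2 or 3 (adjusted p of 0.0625 to 0.0860). The call for Tek in bmECs was lost without bmEC replicate 2 (adjusted p = 0.0519). The Lats2 calls for Pecam1, Tek and Kdr were lost without Cont replicate 1 or 2 (adjusted p of 0.147 to 0.178).

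Vwf, Selp, Mmrn1 and Cd63 are also made by megakaryocytes and carried by platelets. The 10 megakaryocyte and platelet markers, led by Pf4, summed to 344, 80.3 and 132 FPKM in the mpECs and 500.0, 84.8 and 219.8 FPKM in the bmECs, with bmEC replicate 1 and mpEC replicate 1 the highest, 1 of 9 tested called higher (Clec1b, 1.27, adjusted p = 0.0163) and 0 lower. In the Lats2 comparison the sum was 30.6 and 122 FPKM in the Cont libraries and 12.6 and 9.95 FPKM in the cKO libraries, with Pf4 called lower (-1.80, adjusted p = 0.0320) and Gp1bb, Gp9 and Treml1 at 0 in both cKO libraries, in which Vwf was higher. Treml1 was also at 0 in Cont replicate 1, and Gp1bb shares 92.9% of its exon bases with Sept5 and Gm49601 on the same strand. Cont replicate 2 held more of these markers and more Vwf than Cont replicate 1. In the Yap1/Taz comparison the sum was 166, 163 and 185 FPKM in the control libraries and 179, 203 and 204 FPKM in the libraries labelled ECKO, with Ppbp called higher (1.27, adjusted p = 0.0117); the part of these cells in any of the results was not tested. The call for Clec1b in bmECs was lost without mpEC replicate 2 or 3 (adjusted p of 0.0519 to 0.0568). The call for Ppbp in the libraries labelled ECKO was lost without ECKO replicate 2 or 3 (adjusted p of 0.0711 to 0.0983). Leaving out Cont replicate 1 or 2 lost the Lats2 call for Pf4 (adjusted p of 0.118 to 0.129). That for Pf4 was also lost without cKO replicate 1 or 2 (adjusted p of 0.1003 to 0.149).

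**Figure D4:**
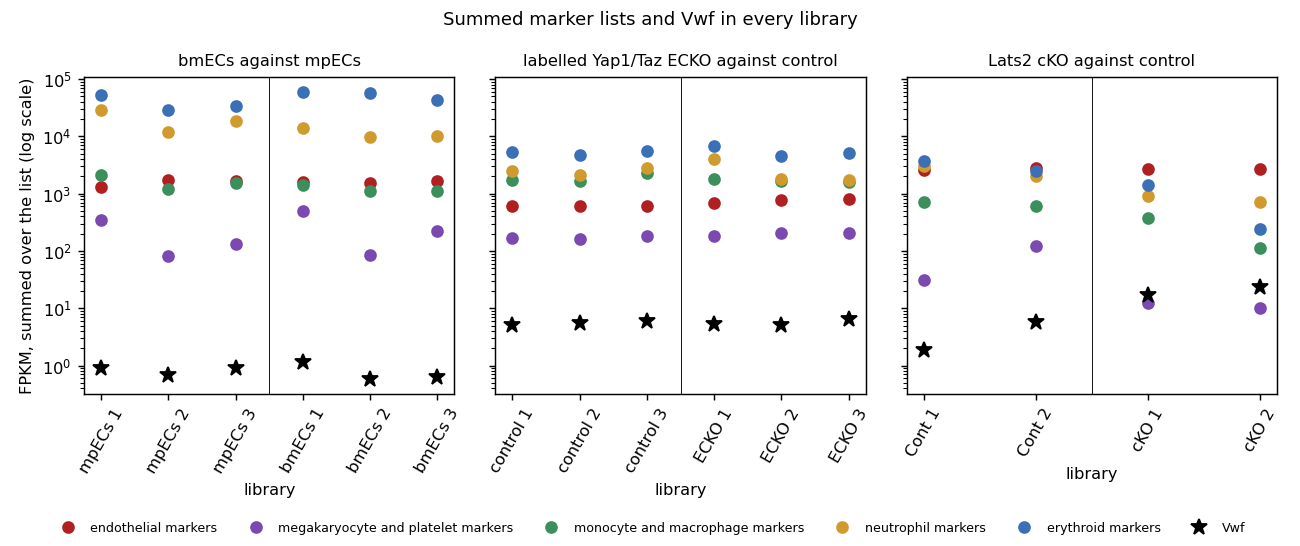
Summed FPKM of 5 marker lists and FPKM of Vwf (stars) in each library, on a log axis, with the 3 comparisons in separate panels and a line between groups. In the Lats2 panel the platelet, neutrophil and erythroid sums are lower in both cKO libraries while Vwf is higher and the endothelial sum is level.

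Blood cell markers were abundant. Neutrophil markers, led by S100a8 or S100a9, summed to 28694, 12040.4 and 18618 FPKM in the mpECs and 14231, 9806 and 10167 FPKM in the bmECs, with 0 of 10 higher and 1 lower (Retnlg), and to 3009.8 and 2059 FPKM in the Cont libraries and 926 and 728 FPKM in the cKO libraries, with 7 of 10 lower (Ngp, Ltf, Mmp8, Camp, Ly6g, S100a9 and S100a8; median -1.68) alongside F8, Tfpi and Thbd. In the Yap1/Taz comparison they summed to 2454, 2145 and 2794 FPKM in the control libraries and 4012, 1803 and 1697 FPKM in the libraries labelled ECKO, highest in ECKO replicate 1, in which Tfpi and Thbd were nearest the controls, and limma called 0 of 10. The 7 erythroid markers, led by Hbb-bs, summed to 3669.6 and 2436 FPKM in the Cont libraries and 1395 and 243 FPKM in the cKO libraries, with 1 lower (Slc4a1, -3.19, adjusted p = 0.0245); in the regional comparison they summed to 52878, 28251 and 33496 FPKM in the mpECs and 60395, 55991 and 42478 FPKM in the bmECs and in the Yap1/Taz comparison to 5409, 4643 and 5566 FPKM in the control libraries and 6672, 4447 and 5032 FPKM in the libraries labelled ECKO, with 0 called by limma in either. Elane and Mpo were at 0 in cKO replicate 2. The part of these cells in the coagulation results was not tested. The call for Retnlg in bmECs was lost without mpEC replicate 1 or 3 or bmEC replicate 1, 2 or 3 (adjusted p of 0.0599 to 0.106). Without Cont replicate 1 or 2, the Lats2 calls for Ngp, Ltf, Mmp8, Camp, Ly6g, S100a9, S100a8 and Slc4a1 were lost (adjusted p of 0.110 to 0.200). Those for Ngp, Ltf, Ly6g and S100a9 were also lost without cKO replicate 2 (adjusted p of 0.0511 to 0.0717). Those for Camp and S100a8 were also lost without cKO replicate 1 or 2 (adjusted p of 0.0614 to 0.104).

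Monocyte and macrophage markers, led by Lyz2, summed to 2117, 1223 and 1518 FPKM in the mpECs and 1397, 1103 and 1106 FPKM in the bmECs. Lyz2 was called lower (-0.82, adjusted p = 0.0312) and accounted for the fall of the sum, while 5 of 10 lay above 0 (median -0.059), C1qa, C1qb and C1qc among them (0.36, 0.38 and 0.55, not called). Mrc1, also a gene of sinusoidal endothelium, was higher in bmECs (1.74, adjusted p = 7.6e-05) and lower in cKO (-2.95, adjusted p = 0.00987). The list summed to 718 and 619 FPKM in the Cont libraries and 369.7 and 115 FPKM in the cKO libraries for Lats2, and to 1758, 1676 and 2304 FPKM in the control libraries and 1817, 1669.7 and 1599 FPKM in the libraries labelled ECKO for Yap1/Taz, where limma called 0 of 10. In the Lats2 comparison 4 of 9 tested had log2 fold changes above 0 (median -0.066). Lyz2 and Mrc1 made up most of the fall in the sum, while C1qa (1.46, adjusted p = 0.0660), C1qb (1.47, adjusted p = 0.110) and C1qc (1.26, adjusted p = 0.0842) lay above Cont in both cKO libraries and were not called. Osteoblast and stromal markers summed to 597, 337 and 153 FPKM in the mpECs and 72.1, 97.8 and 79.0 FPKM in the bmECs, with Bglap and Col1a2 lower in bmECs (log2 fold changes of -5.53 and -3.72) as Plat was, and Lepr higher (1.85). They summed to 49.5, 53.0 and 65.4 FPKM in the control libraries and 39.2, 22.8 and 24.9 FPKM in the libraries labelled ECKO, with Col1a1 (-1.95) and Bglap lower, and to 104 and 46.6 FPKM in the Cont libraries and 66.5 and 67.9 FPKM in the cKO libraries, with Cxcl12 higher (0.64). For Yap1/Taz, Bglap passed the filter through the controls alone and lay under its floor of 3 reads (1.04, 0.830 and 0.854 FPKM) in all 3 libraries labelled ECKO, so no fold change is given. Col1a1 was called lower in bmECs but passed through the mpECs alone (bmEC mean 0.583 FPKM), so no fold change is given there. The part of these markers in the results for Plat and Plau was not tested. The call for Lyz2 in bmECs was lost without mpEC replicate 1 or 3 or bmEC replicate 2 or 3 (adjusted p of 0.0543 to 0.105). The call for Col1a1 in the libraries labelled ECKO was lost without control replicate 1, 2 or 3 or ECKO replicate 2 or 3 (adjusted p of 0.0544 to 0.184). The call for Bglap in the libraries labelled ECKO was lost without control replicate 2 or ECKO replicate 2 or 3 (adjusted p of 0.0890 to 0.197). The Lats2 calls for Mrc1 and Cxcl12 were lost without Cont replicate 1 or 2 (adjusted p of 0.113 to 0.259). That for Cxcl12 was also lost without cKO replicate 1 or 2 (adjusted p of 0.117 to 0.159).

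Pericyte and smooth muscle markers summed to 199, 290.5 and 242 FPKM in the mpECs and 633, 649 and 625 FPKM in the bmECs and to 459 and 547 FPKM in the Cont libraries and 121 and 92.3 FPKM in the cKO libraries. Most of this was Kcnj8 and Abcc9, subunits of a potassium channel, which were higher in bmECs (1.46 and 1.60) and lower in cKO (-2.47 and -2.54), whereas Acta2 (2.36) and Rgs5 (1.53) were higher in cKO. For Rgs5 in cKO the log2 fold change ranged from 1.01 to 2.04 on leaving out 1 library. The other 2 of 4 tested in the regional comparison, Rgs5 (-1.52, adjusted p = 0.176) and Acta2 (-0.86, adjusted p = 0.0996), lay below 0 and were not called. The list summed to 112, 102 and 112 FPKM in the control libraries and 131, 170.2 and 167 FPKM in the libraries labelled ECKO for Yap1/Taz, where limma called 0 of 3 tested. Sorting stress markers summed to 793, 808 and 1145 FPKM in the mpECs and 2608, 3048 and 962 FPKM in the bmECs, with Junb (1.11) and Jun (1.31) higher. bmEC replicate 3 lay near the mpECs in this sum, and the part of sorting stress in the regional results was not tested. For Yap1/Taz the stress markers summed to 1858, 1864 and 1921 FPKM in the control libraries and 1930.0, 2334 and 2374 FPKM in the libraries labelled ECKO, with 0 of 8 called by limma, and for Lats2 to 678 and 858 FPKM in the Cont libraries and 902 and 764 FPKM in the cKO libraries, with Atf3 higher (1.22). The call for Jun in bmECs was lost without mpEC replicate 1 or 2 or bmEC replicate 1 or 2 (adjusted p of 0.106 to 0.137). Leaving out Cont replicate 1 or 2 lost the Lats2 calls for Acta2, Rgs5, Atf3, Kcnj8 and Abcc9 (adjusted p of 0.110 to 0.211). Those for Acta2 and Atf3 were also lost without cKO replicate 1 or 2 (adjusted p of 0.0778 to 0.145). That for Rgs5 was also lost without cKO replicate 2 (adjusted p = 0.0647).

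Likeness of expression was measured as Pearson's r of log2(FPKM + 1), centred within each comparison, over the 16 libraries and the genes tested in all 3 comparisons, as a description that rests on the shared group differences. The 3 genes most like Tfpi were Gpm6a (r = 0.994), Thbd (r = 0.993) and Fcgrt (r = 0.990), and those most like Thbd were Tfpi (r = 0.993), Ubd (r = 0.990) and Kcnj8 (r = 0.987). For F8 they were Pparg (r = 0.992), Gpm6a (r = 0.989) and Tfpi (r = 0.988). Tfpi and Thbd were thus each among the 3 nearest to the other. F8 was not among the 3 nearest to either, and F8 and Thbd had r = 0.985. All 3 genes share the group differences on which r rests, so this adds no separate evidence. The genes nearest to Plat were Cd40 (r = 0.984), Emp1 (r = 0.983) and Piezo2 (r = 0.979), and to Procr Morf4l2 (r = 0.944), Ctla2a (r = 0.943) and Myct1 (r = 0.937). Nearest to Vwf were Mgmt (r = 0.960), Cdipt (r = 0.957) and Crip1 (r = 0.937). For Plau they were Jam3 (r = 0.957), Rapgef1 (r = 0.940) and Tubb2a (r = 0.934), for Plaur Sema3f (r = 0.904), Crem (r = 0.900) and Nlk (r = 0.870), and for F3, with few reads, Arih2 (r = 0.877), Rabgef1 (r = 0.859) and Ndel1 (r = 0.857). Between members, Plat had r = -0.789 with F8 and r = -0.761 with Tfpi, and Procr and Thbd had r = -0.551.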

How the data were processed

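The authors deposited FPKM values, made from reads mapped to GRCm38 (mm10) with TopHat and counted with HTSeq 0.6.1 per the submitters' processing notes; the step from counts to FPKM and its strand setting are not given in the sources used here, and 1 set of libraries carries no unit in its columns, read as FPKM from steps that scale with gene length. The authors used DESeq2, on counts not used here. From the FPKM values, log2(FPKM + 1) was fitted with limma 3.58.1 in R 4.3.3, with 1 group term and variances moderated along a trend with abundance. Genes averaging 1 FPKM or more were tested, p-values were adjusted by Benjamini-Hochberg over all of them, and genes were called at an adjusted p under 0.05. Numbers were assembled by scripts in Python 3.11.15 (pandas 2.3.3 and numpy 2.4.6), and plots were drawn in matplotlib 3.10.9. The fits were run on simulated reads with 1 spread for every gene and few genes changed. This checks the code and does not show how the fits perform on these libraries. Reads were recovered from FPKM and GENCODE M21 gene lengths; among genes at 20 reads or fewer, 62.3% to 69.9% in each library fell no more than 0.02 from a whole count. Floors are 3 reads. The members and lists were chosen with earlier results of these data known. Named genes are all 9 members, the targeted genes, and of each list the most abundant gene (by mean over all libraries of a comparison), up to 6 called genes, largest absolute fold changes first, and markers at 0, besides C1qa, C1qb and C1qc, which ran against the sum of their list; for likeness, the 3 highest correlations per member. An item of the lists is not reported here and is in none of their counts. Alternatives were other pseudocounts, filters, scalings and thresholds, no trend, limma-voom on recovered reads, a replicate block and leaving out each library; scaling to endothelial markers was chosen after seeing the data. No replicates were alike within counting noise.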

Additional observations from a re-analysis of the deposited data

How the results depend on the processing

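In bmECs against mpECs, F8, Tfpi, Thbd and Plat kept their direction and call in all 17 alternatives, while Plau was called in 9 of 16, Plaur in 10 of 17 and Procr in 8 of 17; the cause was not tested. Besides a stricter threshold (adjusted p under 0.01 with an absolute log2 fold change over 0.5) and leaving out a library, calls of the 9 genes were lost in bmECs for Procr with no filter, no trend, the replicate block and endothelial scaling, Plau with no filter and quantile normalization, Plaur with no filter and endothelial scaling; in the libraries labelled ECKO for Procr and Plaur with no filter, no trend and the replicate block; in the cKO libraries for Vwf with no filter. Of the 9 genes, 4 were called with no abundance filter and 4 at the stricter threshold, and 4 to 6 on leaving out 1 library. Of all genes, 1335 were called at the stricter threshold, 1725 with scaling to endothelial markers, added after seeing the data, and 1817 to 2357 on leaving out 1 library, against 2682. In the Yap1/Taz comparison, 0 of 9 were called with no filter (unadjusted p under 0.05 for 2338 genes of all tested), with no trend (1969), at the stricter threshold (2023) and with the replicate block (1671), and 0 to 4 on leaving out 1 library, the most without ECKO replicate 1. Of all genes, limma called 1 with no filter, 17 with no trend, 1 at the stricter threshold, 45 with the block, 1 to 293 on leaving out 1 library and 3070 with scaling to endothelial markers, and limma-voom called 358, against 148. In the Lats2 comparison Vwf was called in 9 of 15 alternatives, and 3 of 8 genes were called at the stricter threshold and 0 to 5 on leaving out 1 library; of all genes, 1389 were called with no filter, 257 at the stricter threshold and 0 to 2701 on leaving out 1 library, against 2711. For Vwf in the Yap1/Taz comparison the log2 fold change was -0.027 in limma-voom and -0.25 with endothelial scaling, and on leaving out 1 library it ranged from -0.056 to 0.078; for Yap1 it ranged from -0.14 to 0.077. Of the other named genes, these lost a call in at least 1 alternative besides the stricter threshold and leaving out a library: in bmECs Cd63, Clec1b, Erg, Ggcx, Jun, Lman1, Lyz2, Mcfd2, Retnlg, Tek and Tfpi2; in the libraries labelled ECKO Col1a1, Wwtr1, Ppbp, Tfpi2, F2r, Mmrn1 and Bglap; in the cKO libraries Acta2, Atf3, Cxcl12, F2r, Kdr, Ly6g, Mmp8, Pf4, Rab27a, Rgs5, S100a8, Serpine2, Slc4a1, Tek and Vkorc1. Plau in the cKO libraries was called in 5 of 15 alternatives. Limma-voom moved the median of all genes to -0.19 in bmECs (893 higher and 2412 lower, against 1481 and 1201) and to -0.14 in cKO (1267 and 2046, against 1468 and 1243), and endothelial scaling moved it to -0.28 for Yap1/Taz (99 and 2971, against 100 and 48). Deviations from the group means correlated at 0.307, 0.0876 and 0.102 between same-numbered regional libraries, and at -0.206 to 0.115 between differently numbered ones. Not every regional library correlated best with its own number, so whether the regional numbers mark pairs was not settled. For Yap1/Taz the same-numbered correlations were -0.175, -0.123 and -0.155. For Lats2, 2 libraries per group force every correlation to the same size (0.0651), so it cannot show pairing. The sources used name no pairs, and the main fits used none. The block moved the counts of all genes called to 3072, 45 and 2655. Depth limited F3 most, at 0 to 24.2 recovered reads per library.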
